A study of Mus musculus with 9 samples.

Results

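Collagens are triple helices wound from alpha chains, each chain encoded by its own gene. The chains described here are all those measured outside type IV, chosen by gene name: every row of the deposited expression table whose name follows the mouse collagen pattern (Col, a number, a, a number) and does not begin with Col4a. The rule took no account of level and found 38 rows among the 48640 of the table. Fibrillar collagens (types I, II, III, V and XI) form the banded fibrils of connective tissue, and types V and XI sit inside those fibrils and set their diameter. FACITs bind to fibril surfaces, type VI forms beaded filaments around cells, type VIII forms hexagonal nets, type VII anchors epithelia, and the multiplexins XV and XVIII lie in or beside basement membranes. Newly made chains are hydroxylated, folded on chaperones, trimmed and crosslinked before they bear load.

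The series measured polyadenylated RNA in 9 libraries from 3 kinds of mouse colonies, 3 libraries each, after lentiviral delivery to embryonic fibroblasts and reprogramming with doxycycline at 1 ug/mL, followed to 75 days. Control iPSCs (induced pluripotent stem cells) arose where fibroblasts had received an empty vector, and are labelled Oct4:GFP+, a fluorescent reporter of the pluripotency gene Oct4. YAP-culture iPSCs arose where the vector carried YAP, the Hippo pathway co-activator. Their genotype label is Oct4:GFP+YAPmCherry+, while their titles say that YAP overexpression had been lost, and which of these describes them was not settled. YAP colonies are the YAPmCherry+ colonies of the YAP cultures that were not pluripotent, and they were kept on doxycycline. The iPSCs and the colonies were both grown on a feeder layer. The labels do not say that replicates were separate cultures or clones, so the p-values cover just the spread among these libraries, which may be technical.

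Values are FPKM, a fragment count divided by transcript length and by library total, a level scaled per length, so that levels of different genes can be set side by side. They summed to between 509321 and 634471 per library, and read depth is unknown from this unit. Yap1 was at 59.1 to 63.1 FPKM in the YAP colonies, 40.4 to 45.8 in control iPSCs and 32.5 to 39.1 in YAP-culture iPSCs, and the table does not separate vector from endogenous transcripts. The 7 naive pluripotency markers summed to 119 to 162 FPKM in the colonies, nearly all of it Nanog, against 4486 to 6353 in the 6 iPSC libraries. YAP-culture iPSC replicate 3 stood apart from its group: its correlation with control iPSC replicate 2 was 0.969, against 0.944 and 0.934 with its own group. Several results that rest on it are given with and without it, or with its value pointed out. This was not done for every gene: it was also the highest of its group for Col20a1, Serpinh1, Plod1 and Pcolce, among others.

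A chain was tested where its mean over all 9 libraries was at least 1 FPKM, in 1 limma fit of log2(FPKM + 1) across all 13808 such genes. "Rose", "fell" and "called" mean a p below 0.05 after Benjamini-Hochberg adjustment over all tested genes (two-sided), with a change of at least 1 on the log2(FPKM + 1) scale, which understates the change of low genes. Of the 38 chains, 15 passed that filter. A chain near 0 in the iPSCs could pass only through the colonies and then had to differ, so counts over those 15 describe the fit and do not speak for the whole family.

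Within each group most of the family stayed below a mean of 1 FPKM. The mean reached 1 FPKM for 9 of 38 chains in control iPSCs, 7 in YAP-culture iPSCs and 14 in YAP colonies. In every library of the group 4, 4 and 12 chains did so. Over all groups 18 chains reached a mean of 1 FPKM in at least 1 group, and 20 did not. By class the colonies expressed 8 of 11 fibrillar chains at that level, 2 of 6 type VI chains, 1 of 3 short-chain network chains, type VII, both multiplexins, and none of the 9 FACITs or 4 transmembrane collagens. Just inside the filter were Col1a1 and Col7a1, at means of 1.04 and 1.06 FPKM over all libraries, and just outside it were Col1a2 and Col26a1, at 0.954 and 0.879.

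**Figure D1:**
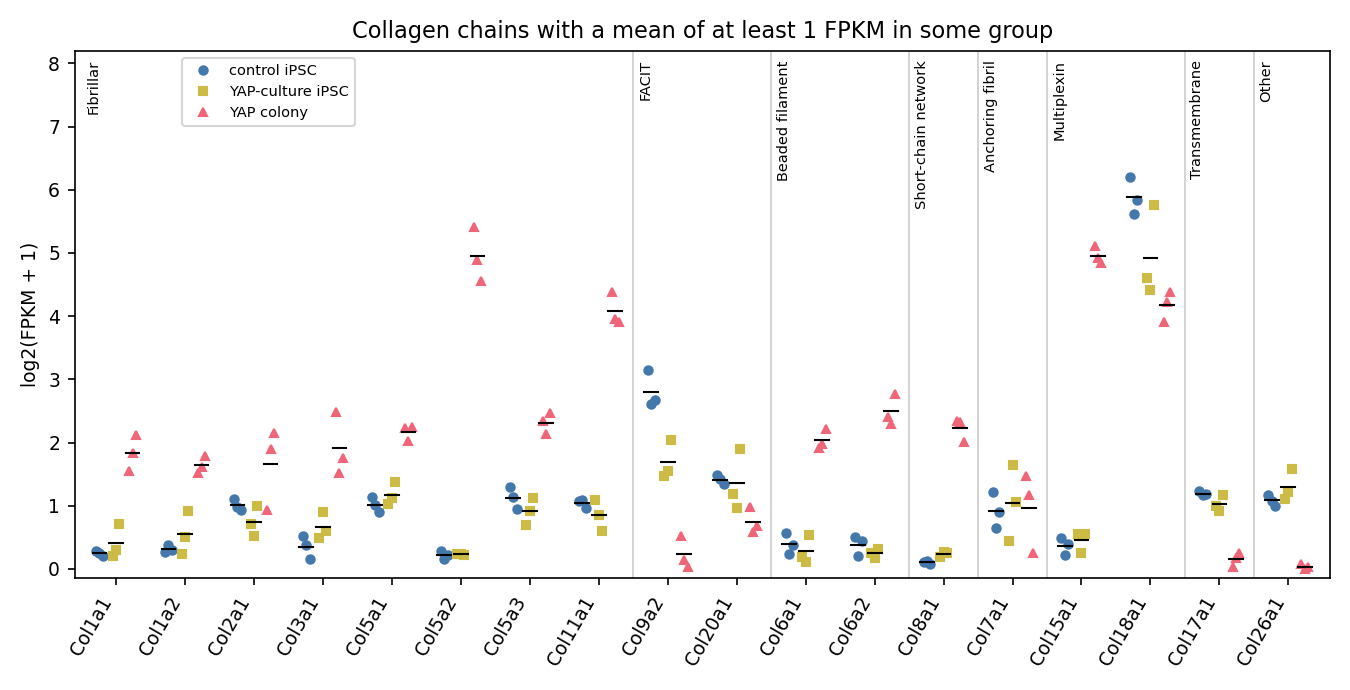
Level of each of the 18 collagen chains with a group mean of at least 1 FPKM, as log2(FPKM + 1) in each of the 9 libraries, with black bars for the mean of each group of 3 and grey lines between chain classes. Col5a2, Col11a1 and Col15a1 stand highest in the YAP colonies with no overlap, while Col18a1 and Col9a2 stand lowest there.

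The repertoire of the iPSCs was dominated by 1 chain, Col18a1, and that of the colonies was not. Summed over all 38 chains, collagen RNA was 97.7, 66.4 and 75.2 FPKM in the control iPSC libraries, 37.2, 37.0 and 76.3 in YAP-culture iPSCs, and 145, 123 and 122 in YAP colonies. Colonies were above every iPSC library in this sum, and the YAP-culture iPSC library at 76.3 was replicate 3. Col18a1 made up 72.6% to 74.6% of the sum in control iPSCs, 54.8% to 69.3% in YAP-culture iPSCs and 9.68% to 16.3% in colonies. Without Col18a1 the sum was 18.2 to 24.8 FPKM in control iPSCs, 13.8 to 23.4 in YAP-culture iPSCs and 102 to 131 in colonies. In the colonies Col5a2, Col15a1 and Col11a1 together held 52.4% to 65.4% of the sum, against 1.5% to 4.79% in the iPSC libraries. Fibrillar chains alone summed to 65.1 ± 11.9 FPKM in colonies, 5.82 ± 0.816 in control iPSCs and 6.03 ± 1.49 in YAP-culture iPSCs. In bulk RNA, fewer cells of a type and less RNA per cell cannot be told apart, and this holds for each level below.

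**Figure D2:**
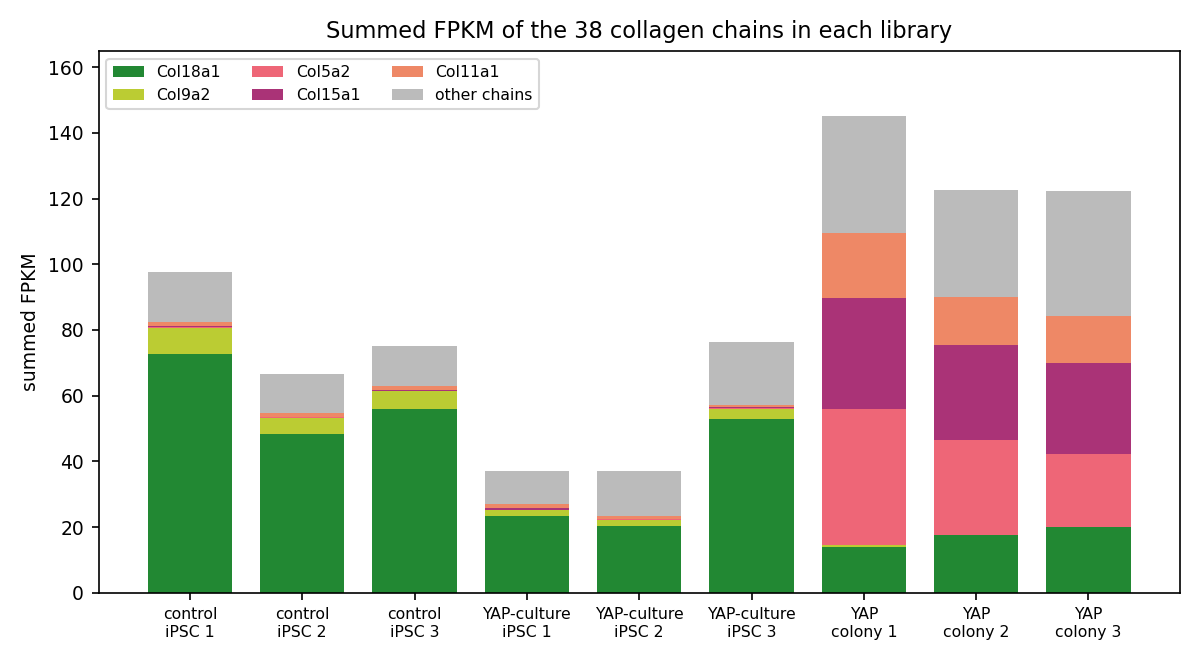
Summed FPKM of the 38 collagen chains in each of the 9 libraries, split into Col18a1, Col9a2, Col5a2, Col15a1, Col11a1 and all other chains. Col18a1 fills 54.8% to 74.6% of the iPSC bars and 9.68% to 16.3% of the colony bars.

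In YAP colonies against YAP-culture iPSCs, 9 of the 15 tested chains rose and 1 fell, where 15.8% of all 13808 tested genes rose and 14.5% fell. In YAP colonies against control iPSCs, 10 rose and 2 fell, where 14.9% of all tested genes rose and 17.0% fell. The median log2 change of the 15 was 1.40 and 1.57, beside 0.02 and -0.07 for all tested genes. With no filter, 10 of the 37 chains detected in some library rose and 2 fell against YAP-culture iPSCs, beside 8.76% and 7.96% of 26982 genes, and 11 rose and 4 fell against control iPSCs, beside 8.33% and 9.22%. The medians over the 37 were 0.11 and 0.21, beside 0.00 and -0.01. These are medians of signed changes, in which rises and falls offset each other, so they do not measure how far a typical chain moved. With a pseudocount of 5, which damps low genes, 3 rose and 0 fell against YAP-culture iPSCs and 3 rose and 2 fell against control iPSCs, the risers being Col5a2, Col11a1 and Col15a1. The same 3 colony libraries stand in both comparisons, which therefore are not independent of each other. Every colony library lay above every iPSC library for 16 of the 37 chains and below for 8, where 19.9% and 20.1% of all 26982 genes did.

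**Figure D3:**
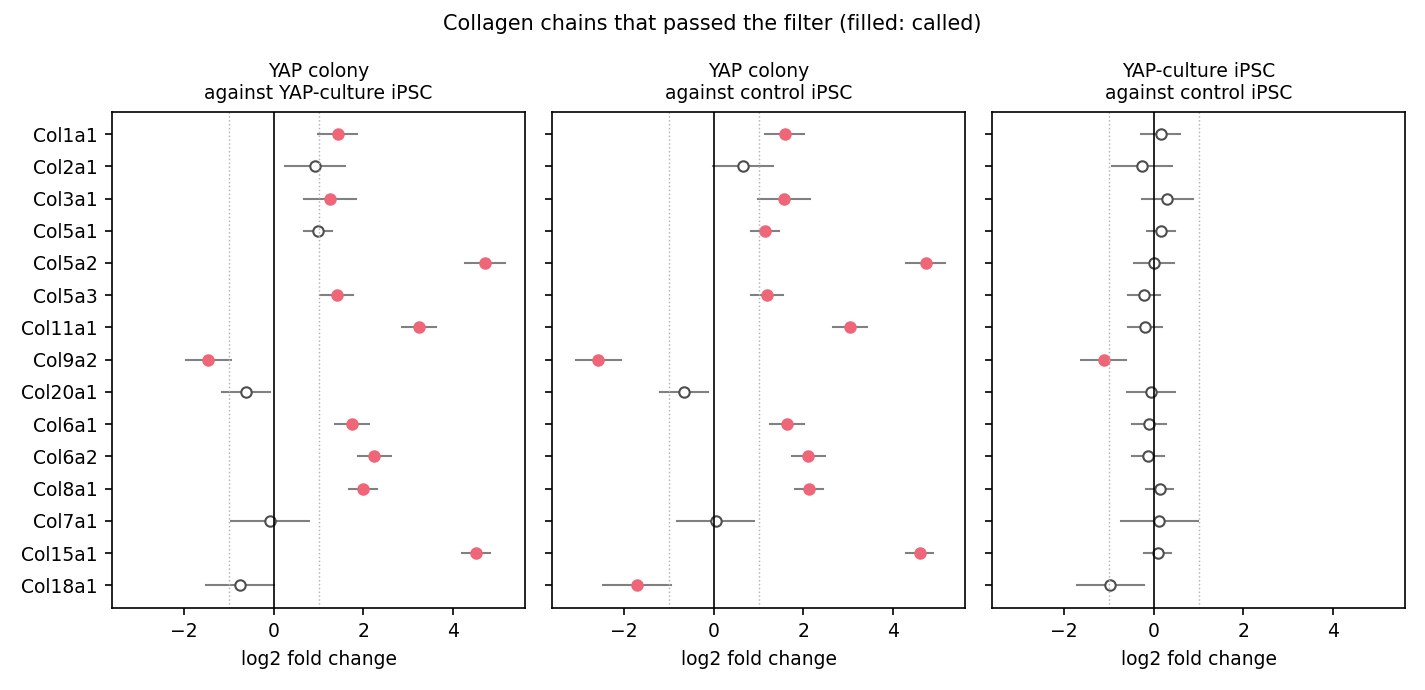
Log2 fold change of the 15 tested collagen chains on the log2(FPKM + 1) scale in each comparison, with 95% limma confidence intervals as bars, filled points for called chains and dotted lines at a change of 1. Col5a2, Col15a1 and Col11a1 lie above 3 in both comparisons of the colonies, and Col9a2 is the 1 filled point between the iPSC groups.

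The sequences upstream of 4 chains that rose are shown, among them Col15a1 and Col11a1, which with Col5a2 led the colonies. RefSeq promoter windows on GRCm38.p6 (the mm10 assembly) were at hand for 30 of the 38 chains, Col5a2 not among them, and the 250 bases before a start are used. The windows printed are those of Col11a1 (chr3:114030290-114030539, plus strand), Col15a1 (chr4:47207762-47208011, plus strand), Col6a2 (chr10:76623631-76623880, minus strand) and Col8a1 (chr16:57754738-57754987, minus strand), each read 5′ to 3′ along the gene, and capitals mark the CCAAT motif of the factor NF-Y, here on the opposite strand.
Col11a1: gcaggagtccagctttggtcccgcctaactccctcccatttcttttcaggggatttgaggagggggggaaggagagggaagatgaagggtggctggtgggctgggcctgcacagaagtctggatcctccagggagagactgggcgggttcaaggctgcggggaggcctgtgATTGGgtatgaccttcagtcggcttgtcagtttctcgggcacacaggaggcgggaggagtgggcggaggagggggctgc
Col15a1: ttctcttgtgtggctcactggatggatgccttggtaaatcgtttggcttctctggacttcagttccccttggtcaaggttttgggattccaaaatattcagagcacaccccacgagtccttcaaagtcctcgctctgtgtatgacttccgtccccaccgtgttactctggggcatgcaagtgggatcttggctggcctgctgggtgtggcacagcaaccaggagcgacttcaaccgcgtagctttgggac
Col6a2: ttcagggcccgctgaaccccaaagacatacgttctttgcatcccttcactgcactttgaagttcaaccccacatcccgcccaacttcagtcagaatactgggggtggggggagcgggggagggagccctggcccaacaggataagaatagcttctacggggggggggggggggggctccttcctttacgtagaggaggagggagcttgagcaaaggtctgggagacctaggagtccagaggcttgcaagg
Col8a1: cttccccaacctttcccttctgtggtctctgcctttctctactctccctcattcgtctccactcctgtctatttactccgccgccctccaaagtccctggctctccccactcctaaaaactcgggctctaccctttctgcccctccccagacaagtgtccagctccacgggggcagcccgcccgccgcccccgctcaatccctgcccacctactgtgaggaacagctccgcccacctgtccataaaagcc
Both strands of the windows of all 30 chains were searched for GGAATG, the core bound by TEAD factors through which YAP acts, for the AP-1 motif TGANTCA, for CCAAT, and for TATAAA, the TATA box. GGAATG stood in the windows of 4 of 30 chains, Col3a1, Col6a2, Col18a1 and Col20a1, and in 12.6% of 32851 promoter windows of all genes. For Col6a2 the match is in the window of a second start, which like 4 others reaches into an annotated exon and is not printed. TGANTCA stood in that of Col6a1 alone, and in 6.75% of all windows. CCAAT stood in 10 of 30, beside 33.8% of all, and TATAAA in 5 of 30, beside 12.4%. These are matches of letters in a short window. The 4 printed windows hold none of these motifs but the 1 capitalised in Col11a1. Their GC content runs from 53.6% for Col15a1 to 62.4% for Col11a1, against a median of 52.4% over all windows and 58.8% over those of the family.

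Among the fibrillar chains, the largest rises were those of Col5a2 of type V and Col11a1 of type XI. The other type V chains, Col5a1 and Col5a3, rose less against control iPSCs than Col1a1 and Col3a1 did. Col5a2 (chr1:45374321-45503282, minus strand) encodes the second chain of type V collagen, which starts and limits the growth of type I fibrils. It was at 41.4, 28.7 and 22.4 FPKM in the colonies, 0.222, 0.119 and 0.163 in control iPSCs, and 0.183, 0.181 and 0.171 in YAP-culture iPSCs. All iPSC libraries were near 0 and every colony lay far above them. Col5a2 had the highest mean of the chains in the colonies, at 30.8 ± 9.66 FPKM (SD, n = 3), which differed from that of Col15a1, 30.2 ± 3.14, by less than the spread between replicates. It rose by 4.73 ± 0.19 (SE) on the log2 scale against control iPSCs (limma adjusted p = 1.39e-07) and by 4.71 ± 0.19 against YAP-culture iPSCs (limma adjusted p = 1.50e-07). Its partner Col5a1, the obligate chain of type V, was already present in the iPSCs. Col5a1 was at 3.68, 3.07 and 3.76 FPKM in the colonies, 1.20, 1.01 and 0.871 in control iPSCs, and 1.04, 1.16 and 1.58 in YAP-culture iPSCs. The groups did not overlap, yet the change was small: Col5a1 rose by 1.15 ± 0.14 against control iPSCs (limma adjusted p = 9.72e-05) and was 1.00 ± 0.14 higher against YAP-culture iPSCs (limma adjusted p = 0.000246), where its change fell just short of the threshold of 1. It passed at 1.10 without YAP-culture iPSC replicate 3 and at 1.07 without colony replicate 2.

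Col11a1 (chr3:114030540-114220718, plus strand), the main chain of type XI collagen of cartilage fibrils, was at 19.8, 14.5 and 14.1 FPKM in the colonies. It was at 1.11, 1.12 and 0.953 in control iPSCs and 1.13, 0.811 and 0.509 in YAP-culture iPSCs. Every colony library lay far above the highest iPSC library, and Col11a1 rose by 3.04 ± 0.17 and 3.24 ± 0.17 on the log2 scale (limma adjusted p = 8.23e-07 and 5.89e-07). Col5a3, a minor type V chain, was at 4.04, 3.40 and 4.55 FPKM in the colonies, 1.46, 1.20 and 0.930 in control iPSCs, and 0.624, 0.882 and 1.18 in YAP-culture iPSCs. It rose in both comparisons with no overlap, by 1.19 and 1.40 (limma adjusted p = 0.000215 and 7.83e-05). Col11a2, the partner of Col11a1 in cartilage, did not follow: it was at 0.479 to 0.549 FPKM in the colonies and 0.105 to 0.446 in the iPSCs, under the filter.

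Types I and III, the bulk collagens of skin, tendon and cultured fibroblasts, rose but stayed low. Col1a1 was at 1.92, 2.55 and 3.33 FPKM in the colonies, 0.216, 0.187 and 0.153 in control iPSCs, and 0.156, 0.228 and 0.637 in YAP-culture iPSCs. Col1a2, its partner in type I collagen, was at 1.86, 2.05 and 2.47 FPKM in the colonies, 0.203, 0.295 and 0.235 in control iPSCs, and 0.174, 0.423 and 0.879 in YAP-culture iPSCs. Col3a1, which forms type III collagen alone, was at 4.59, 1.87 and 2.38 FPKM in the colonies, 0.441, 0.302 and 0.113 in control iPSCs, and 0.404, 0.864 and 0.509 in YAP-culture iPSCs. For each of these genes all colonies lay above all iPSC libraries, and the highest YAP-culture iPSC value of the type I genes was that of replicate 3. Col1a1 rose by 1.58 and 1.42 (limma adjusted p = 0.000105 against control and 0.000212 against YAP-culture iPSCs) and Col3a1 by 1.57 and 1.26 (limma adjusted p = 0.000633 and 0.00232). Col1a2 missed the filter and was called in the limma fit with no filter, at 1.33 and 1.09 (adjusted p = 0.000400 and 0.00119). The 3 genes together came to 7.67 ± 1.05 FPKM in colonies (SD, n = 3), below the level of Col11a1 alone.

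Markers of fibroblasts gave mixed values beside the fibrillar chains. The 11 fibroblast markers that are not collagens, a list that covers feeder and residual fibroblasts, summed to 31.0 to 38.1 FPKM in the colonies, 5.27 to 7.48 in control iPSCs and 5.05 to 9.14 in YAP-culture iPSCs. Their part in the result was not tested. In the colonies 3 of the 11 reached a mean of 1 FPKM, namely Thy1 at 16.9 to 28.6, Dcn at 6.85 to 11.1 and Postn at 1.37 to 1.54. For these 3 every colony lay above every iPSC library. Twist1 and Pdgfrb lay below, with Twist1 at 0.0446 to 0.0914 FPKM in colonies and 0.391 to 1.07 in iPSCs, and Pdgfrb at 0.281 to 0.377 and 0.731 to 1.04. The other 6 overlapped: in the colonies the defining receptor gene Pdgfra was at 0.224 to 0.237 FPKM, Prrx1 at 0.285 to 0.468, Snai2 at 0.138 to 0.194, Fap and Lum at most at 0.135, and Twist2 was listed at 0.

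Col2a1, the fibrillar chain of cartilage, differed among the colonies themselves. It was at 0.905, 2.71 and 3.43 FPKM in colonies, 1.16, 0.971 and 0.907 in control iPSCs, and 0.639, 0.436 and 0.993 in YAP-culture iPSCs. Colony replicate 1 lay within the iPSC range and the other two above it, and the change of 0.91 and 0.65 was not called (limma adjusted p = 0.0243 against YAP-culture iPSCs and 0.0833 against control). Without colony replicate 1 it was called in both comparisons, at 1.28 and 1.01, and without YAP-culture iPSC replicate 3 it was called against YAP-culture iPSCs, at 1.04. Of the other chondrocyte markers, the regulator Sox9 was at 1.58 to 2.32 FPKM in colonies and at most 0.0966 in iPSCs. Acan was at 0 to 0.0272 FPKM in colonies and 1.90 to 3.64 in iPSCs. Matn3 was at 0.139 to 0.271 FPKM against 2.06 to 2.82, and Matn1 at 0 to 0.0703 against 0.817 to 1.89. Comp was listed at 0 in the colonies and was at most 0.347 in iPSCs, and Hapln1 was listed at 0 in every library. Over the 6 chondrocyte markers that are not collagens, the sum was 1.85 to 2.48 FPKM in colonies and 5.49 to 8.45 in the iPSC libraries.

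Partner chains of 1 trimer shifted in ratio between colonies and iPSCs for some pairs and overlapped for others. Type V collagen is usually built with more of the Col5a1 chain than of the Col5a2 chain, and Col5a2 chains can also join Col11a1 chains in mixed V/XI trimers. The ratio of Col5a2 to Col5a1 FPKM was 11.2, 9.35 and 5.96 in colonies, 0.117 to 0.187 in control iPSCs, and 0.108 to 0.176 in YAP-culture iPSCs. Colonies and iPSCs thus lay on opposite sides of 1, with no overlap. Set against the sum of Col5a1, Col5a3 and Col11a1, chosen after the values were seen, the Col5a2 ratio was 1.00 to 1.5 in colonies and 0.0356 to 0.0655 in the iPSC libraries. The ratio of Col11a1 to Col5a1, also chosen after seeing them, was 3.74 to 5.38 in colonies and 0.321 to 1.11 in iPSCs. Col11a2 over Col11a1 was 0.0250 to 0.0377 in colonies and 0.0931 to 0.878 in iPSCs. The ratios of the type I pair and of Col6a2 to Col6a1 overlapped. Col1a2 over Col1a1 was 0.741 to 0.967 in colonies and 0.942 to 1.86 in iPSCs, and Col6a2 over Col6a1 was 1.34 to 1.61 in colonies and 0.545 to 1.75 in iPSCs. Ratios of genes that are both under 1 FPKM in the iPSCs rest on few fragments.

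**Figure D4:**
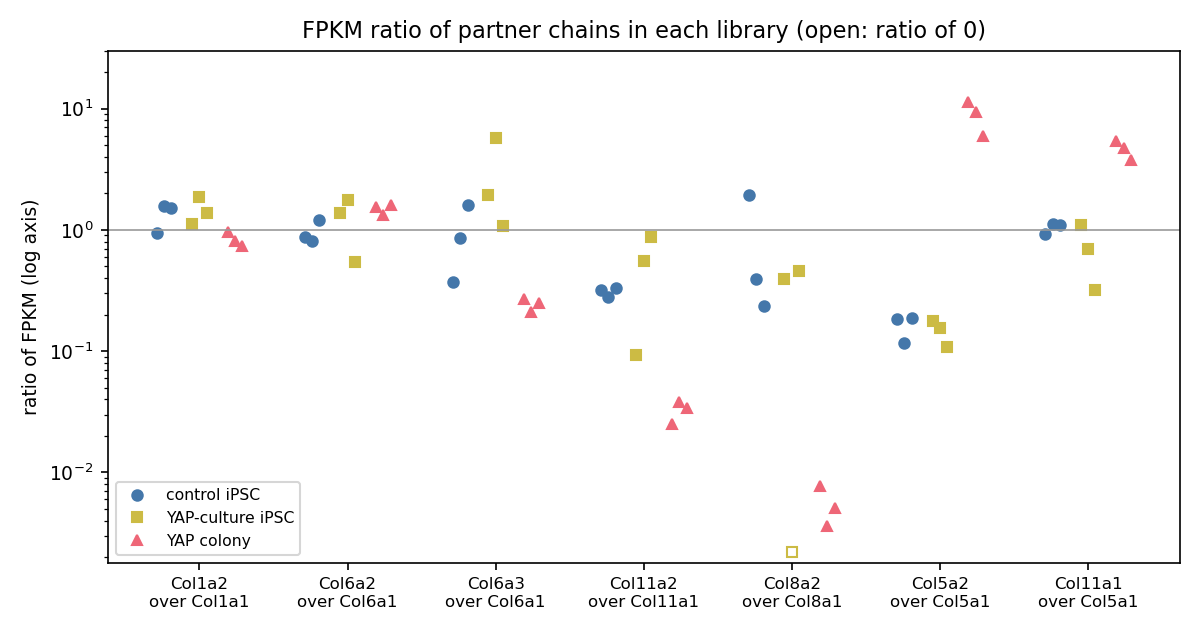
FPKM ratio of partner chains in each of the 9 libraries on a log axis, with a grey line at equal levels and an open symbol for the 1 ratio of 0. Col5a2 over Col5a1 is 5.96 to 11.2 in the YAP colonies and 0.108 to 0.187 in the iPSCs. Col11a2, Col8a2, Col6a3 and Col1a2 lie below their partners in every colony library, and Col11a2 does so in every iPSC library too.

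Type VI collagen forms a beaded network from 3 different chains, of which Col6a1 and Col6a2 rose and Col6a3 did not keep pace. Col6a2 was at 4.31, 3.92 and 5.82 FPKM in the colonies, 0.419, 0.148 and 0.356 in control iPSCs, and 0.196, 0.131 and 0.245 in YAP-culture iPSCs. Col6a1 was at 2.77, 2.93 and 3.61 FPKM in the colonies, 0.475, 0.182 and 0.295 in control iPSCs, and 0.143, 0.0746 and 0.449 in YAP-culture iPSCs. Neither gene overlapped between colonies and iPSCs, and both lie on chromosome 10, 85.2 kb apart on the same strand. Col6a2 rose by 2.11 and 2.24 (limma adjusted p = 5.49e-06 against control and 4.06e-06 against YAP-culture iPSCs) and Col6a1 by 1.64 and 1.75 (limma adjusted p = 3.60e-05 and 2.46e-05). Col6a3, the long chain that completes the trimer, reached 0.616 to 0.906 FPKM in the colonies, against 0.156 to 0.485 in iPSCs, and was below the filter. Its ratio to Col6a1 was 0.210 to 0.269 in the colonies and 0.370 to 5.73 in iPSCs. The chains that can stand in for Col6a3, namely Col6a4, Col6a5 and Col6a6, lie side by side on chromosome 9. They had means of at most 0.457 FPKM in any group. Every colony library was below every iPSC library for Col6a4 and Col6a6. For Col6a6 this separation is at the floor, with colonies up to 0.00743 FPKM and the lowest iPSC library at 0.0106.

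Col8a1, a short chain of the hexagonal nets under corneal and vascular endothelium, was at 4.09, 3.99 and 3.02 FPKM in the colonies. It was at 0.0775, 0.0933 and 0.0559 in control iPSCs and 0.137, 0.207 and 0.193 in YAP-culture iPSCs. It was near 0 outside the colonies and rose by 2.12 and 1.99 (limma adjusted p = 1.94e-06 and 3.01e-06). Its relative Col8a2 stayed at 0.0144 to 0.0316 FPKM in the colonies, and Col10a1, of growth plate cartilage, was listed at 0 in every library. Endothelial markers give mixed values beside this: of 4, Tek was at 41.6 to 44.1 FPKM in colonies against 2.51 to 3.83 in iPSCs, Pecam1 at 0.152 to 0.193 against 29.0 to 38.3, and Cdh5 and Kdr at most at 0.0730 in any library. The 5 smooth muscle markers summed to 115 to 152 FPKM in colonies, almost all Acta2 and Tagln, and to 14.7 to 20.8 in iPSCs, almost all Des. Des went the other way, at 0.381 to 0.881 FPKM in colonies and 14.1 to 20.0 in iPSCs, Cnn1 was at most at 0.284 in any library with overlapping groups, and Myh11 at most at 0.0451. Their part in the result was not tested.

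The multiplexins moved in opposite directions. Col15a1 (chr4:47208161-47313167, plus strand), whose product bridges basement membrane and underlying fibrils, was at 33.7, 29.1 and 27.7 FPKM in the colonies. It was at 0.401, 0.164 and 0.313 in control iPSCs and 0.468, 0.190 and 0.463 in YAP-culture iPSCs. The colonies agreed within a narrow range and every iPSC library was below 0.5, and Col15a1 rose by 4.59 ± 0.14 against control iPSCs and 4.51 ± 0.14 against YAP-culture iPSCs (limma adjusted p = 2.46e-08 and 2.96e-08). Col18a1 (chr10:77052178-77166548, minus strand), a heparan sulfate proteoglycan of basement membranes and the source of endostatin, was at 14.1, 17.6 and 19.9 FPKM in the colonies. It was at 72.8, 48.2 and 56.0 in control iPSCs and 23.4, 20.3 and 52.9 in YAP-culture iPSCs. Every colony lay below every iPSC library, narrowly so for the lower 2 YAP-culture iPSC libraries, while YAP-culture iPSC replicate 3 lay within the control range. Col18a1 fell by 1.71 ± 0.33 against control iPSCs (limma adjusted p = 0.00187) and was 0.75 ± 0.33 lower against YAP-culture iPSCs (limma adjusted p = 0.0804), which was not called. Leaving out YAP-culture iPSC replicate 2 made that change -1.01 and called it, but that fit keeps replicate 3, at 52.9 FPKM. Without replicate 3 the YAP-culture iPSC values are 23.4 and 20.3 FPKM, nearer the colonies, so the difference is smaller and rests largely on that library. The gene overlaps Slc19a1 on the other strand, at 3.79 to 13.2 FPKM, and whether counting used strand is not given in the sources used here. Summed, both multiplexins came to 47.4 ± 0.569 FPKM in colonies, 59.3 ± 12.7 in control iPSCs and 32.5 ± 18.1 in YAP-culture iPSCs (SD, n = 3). The colony sums lay below each control library and between the YAP-culture iPSC libraries.

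Of the FACITs, only Col9a2 and Col20a1 reached a mean of 1 FPKM in a group, and both did so in the iPSCs. Col9a2 (chr4:121039385-121055322, plus strand) encodes a chain of type IX collagen, which coats type II fibrils in cartilage. It was at 7.85, 5.08 and 5.35 FPKM in control iPSCs, 1.77, 1.93 and 3.11 in YAP-culture iPSCs, and 0.431, 0.103 and 0.0233 in colonies. The 3 groups did not overlap, with control iPSCs highest and colonies lowest. Col9a2 fell by 2.58 ± 0.22 in colonies against control iPSCs (limma adjusted p = 1.13e-05) and by 1.46 ± 0.22 against YAP-culture iPSCs (limma adjusted p = 0.000420). Its trimer partners were absent or uneven: Col9a1 was at most at 0.0624 FPKM in any library, and Col9a3 ranged from 0 to 1.04. Col9a3 overlaps Tcfl5 on the other strand, which also had zeros, and an exact 0 in this unit can be a failed estimate. Col20a1, a FACIT-like chain, was at 1.79, 1.67 and 1.53 FPKM in control iPSCs, 1.28, 0.958 and 2.74 in YAP-culture iPSCs, and 0.977, 0.495 and 0.595 in colonies. The colonies overlapped the YAP-culture iPSCs, and the differences of -0.67 and -0.61 were not called (limma adjusted p = 0.0353 and 0.0516). Col20a1 overlaps the transcript BX649560.1 on the same strand, at 2.02 to 3.77 FPKM. The other 7 FACITs were below 1 FPKM in every group mean, and Col12a1, which binds type I fibrils, was higher in each colony (0.571 to 0.701) than in any iPSC library (0.0800 to 0.396).

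The transmembrane chains Col17a1 and Col13a1, and the secreted Col26a1, were lower in the colonies, all at low levels. Col17a1, the hemidesmosome collagen of basal keratinocytes, was at 1.35, 1.24 and 1.26 FPKM in control iPSCs, 0.986, 0.889 and 1.25 in YAP-culture iPSCs, and 0.0248, 0.122 and 0.193 in colonies. The other keratinocyte markers Krt5, Krt14 and Trp63 summed to at most 1.18 FPKM in any library. Col13a1, a transmembrane collagen of the neuromuscular junction, was at 0.498 to 1.13 FPKM in the iPSCs and listed at 0 in every colony. Col26a1, a short secreted chain first found in testis and ovary, was at 1.26, 1.11 and 0.996 in control iPSCs, 1.15, 1.33 and 1.99 in YAP-culture iPSCs, and 0.0516, 0 and 0.0251 in colonies. For these 3 genes every colony lay below every iPSC library. None passed the filter. In the limma fit with no filter Col26a1 was called at -1.05 and -1.27 (adjusted p = 0.000311 against control and 0.000112 against YAP-culture iPSCs), and Col17a1 at -1.04 against control iPSCs alone (adjusted p = 6.75e-05), with -0.87 against YAP-culture iPSCs. Col25a1, a transmembrane chain of neurons, went the other way, at 0.149 to 0.461 FPKM in colonies and at most 0.0444 in iPSCs. The 6 neural markers found in the table summed to 55.6 to 78.3 FPKM in colonies, mostly Map2, and 8.42 to 10.1 in iPSCs. Their part in this was not tested.

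Col7a1, the anchoring fibril chain of skin, was as variable within groups as between them. It was at 1.78, 1.26 and 0.184 FPKM in colonies, 1.32, 0.569 and 0.865 in control iPSCs, and 0.364, 2.13 and 1.08 in YAP-culture iPSCs. All 3 groups overlapped, and the differences of 0.04 (95% interval -0.82 to 0.91) and -0.09 (-0.95 to 0.78) were not called (limma adjusted p = 0.931 and 0.864). The 20 chains with every group mean below 1 FPKM had single values up to 1.32, in Col22a1, and group means up to 0.756, in Col6a3. They are Col11a2, Col24a1 and Col27a1 among the fibrillar chains, Col9a1, Col9a3, Col12a1, Col14a1, Col16a1, Col19a1 and Col22a1 among the FACITs, Col6a3 to Col6a6, Col8a2, Col10a1, Col13a1, Col23a1, Col25a1 and Col28a1. For 7 of them every group mean was below 0.1 FPKM.

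Between the iPSC groups a single collagen chain was called. Of the 15 tested chains 0 rose and 1, Col9a2, fell in YAP-culture iPSCs in the limma fit, where 0.507% of all 13808 tested genes rose and 0.884% fell. At an unadjusted p below 0.05 the counts were 0 and 2, the second being Col18a1, beside 13.7% and 16.8% of all tested genes. The median log2 change of the 15 was -0.06, beside -0.03 over all tested genes. Col9a2 was 1.12 ± 0.22 lower (limma adjusted p = 0.0328), and every YAP-culture iPSC library was below every control library. That call was lost on leaving out any iPSC library except YAP-culture iPSC replicate 3, with adjusted p from 0.0615 to 0.121, and held at 0.00481 without that replicate. Over the other settings tried, its adjusted p ran from 0.0152 to 0.117. Col18a1 was 0.96 ± 0.33 lower and not called (limma adjusted p = 0.108). Without YAP-culture iPSC replicate 3, Col18a1 was called lower at -1.38 (limma adjusted p = 0.00385). Col5a2, Col15a1 and Col11a1, the leading chains of the colonies, differed between the iPSC groups by 0.01, 0.09 and -0.20, with intervals of -0.43 to 0.46, -0.22 to 0.40 and -0.58 to 0.19.

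Some of the enzymes, chaperones and receptors that handle collagen rose in the colonies, and a few fell. The list used here holds 48 genes on 49 rows, since Mia3 has 2, of which 31 rows passed the filter. Against YAP-culture iPSCs 12 rose and 4 fell, and against control iPSCs 12 rose and 5 fell. Of all tested genes 15.8% rose and 14.5% fell in the former comparison and 14.9% and 17.0% in the latter, so the counts that fell are near the background. The medians of the 31 were 0.73 and 0.70 on the log2 scale, beside 0.02 and -0.07 for all tested genes. As with the chains, a row near 0 in the iPSCs, such as Ddr2 or Dcn, could pass only through the colonies and then had to differ. These counts and medians therefore describe the fit and do not speak for the whole list. With no filter, 13 of 48 rows rose and 4 fell against YAP-culture iPSCs, beside 8.76% and 7.96% of 26982 genes. Between the iPSC groups 0 were called in the limma fit, and 8 of the 31 had an unadjusted p below 0.05 (25.8%), beside 30.4% of all tested genes. The largest rise on the log2(FPKM + 1) scale was in Ddr2, a receptor kinase for fibrillar collagen. It was at 21.3, 33.7 and 28.3 FPKM in colonies against 0.152 to 0.168 in control and 0.383 to 0.606 in YAP-culture iPSCs. It rose by 4.61 ± 0.16 and 4.21 ± 0.16 (limma adjusted p = 6.14e-08 and 1.06e-07). By the ratio of means the fibril regulator Fmod, named after its value was seen, rose more. Its mean was 7.12 FPKM in colonies, 0.0120 in control iPSCs and 0.0726 in YAP-culture iPSCs, the iPSC levels being near 0. Fkbp10, a chaperone of type I procollagen, was at 21.3, 44.7 and 48.2 FPKM in colonies and 1.76 to 4.24 in iPSCs, and P3h4, a member of a lysyl hydroxylase complex, at 26.2, 43.0 and 45.7 against 1.48 to 6.18. Colony replicate 1 was the lowest of its group in both genes, still well above each iPSC library. They rose by 3.66 and 3.25 against control iPSCs and by 3.28 and 3.13 against YAP-culture iPSCs (limma adjusted p at most 7.94e-05). Bmp1, which cuts the C-propeptide, reached 12.8 to 15.7 FPKM against 0.532 to 1.44, and Dcn, the fibril-binding proteoglycan decorin, 6.85 to 11.1 against 0.0593 to 0.612. Both rose in both comparisons. Dcn is also in the list of fibroblast markers above.

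Serpinh1, the procollagen chaperone HSP47, was at 86.2, 136 and 104 FPKM in colonies, 42 to 44.5 in control iPSCs and 25.2 to 40.4 in YAP-culture iPSCs. It was thus expressed in all groups and rose by 1.29 and 1.81 (limma adjusted p = 0.000699 and 8.83e-05). The 4 genes that fell against YAP-culture iPSCs also fell against control iPSCs. P4ha2, a prolyl hydroxylase subunit, was at 1.96 to 2.42 FPKM in colonies and 7.87 to 13.6 in iPSCs, and Plod1, a lysyl hydroxylase of helical sites, at 1.85 to 3.41 against 8.25 to 16.9. Pcolce, the enhancer of C-propeptide cleavage, was at 6.29 to 11.2 FPKM against 16.7 to 41.7, and Adamts14, an N-propeptide protease, at 0.102 to 0.538 against 2.04 to 5.46. Their changes against control iPSCs were -1.88, -1.89, -1.91 and -2.20 (limma adjusted p at most 0.000652), and none of the 4 overlapped between colonies and iPSCs. Itga1, a collagen-binding integrin subunit, fell by 1.15 against control iPSCs, and it is named after its value was seen.

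Within families of enzymes the members did not move together. P4ha1 was at 15 to 20.5 FPKM in colonies and 13.6 to 20.1 in iPSCs, with a difference of 0.01 against control iPSCs (limma adjusted p = 0.967). P4hb, the shared subunit of the prolyl hydroxylases, was at 98.5 to 113 FPKM against 130 to 161 and was not called, at -0.45 and -0.36. P4ha3 was at 0.381 to 1.24 FPKM in colonies, below the filter. Of the lysyl hydroxylases, Plod2 was at 21.9 to 26.9 FPKM in colonies against 8.33 to 14.8 and rose by 1.12 against control iPSCs (limma adjusted p = 0.000267), with 0.79 against YAP-culture iPSCs, while Plod3 at 14.9 to 24.9 against 7.40 to 26.0 overlapped and was not called. So Plod1 fell, Plod2 rose in 1 comparison and Plod3 overlapped. Lox, the lysyl oxidase that starts crosslinks, was at 0.882 to 1.16 FPKM in colonies and 0.257 to 0.728 in iPSCs, under the filter.

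**Figure D5:**
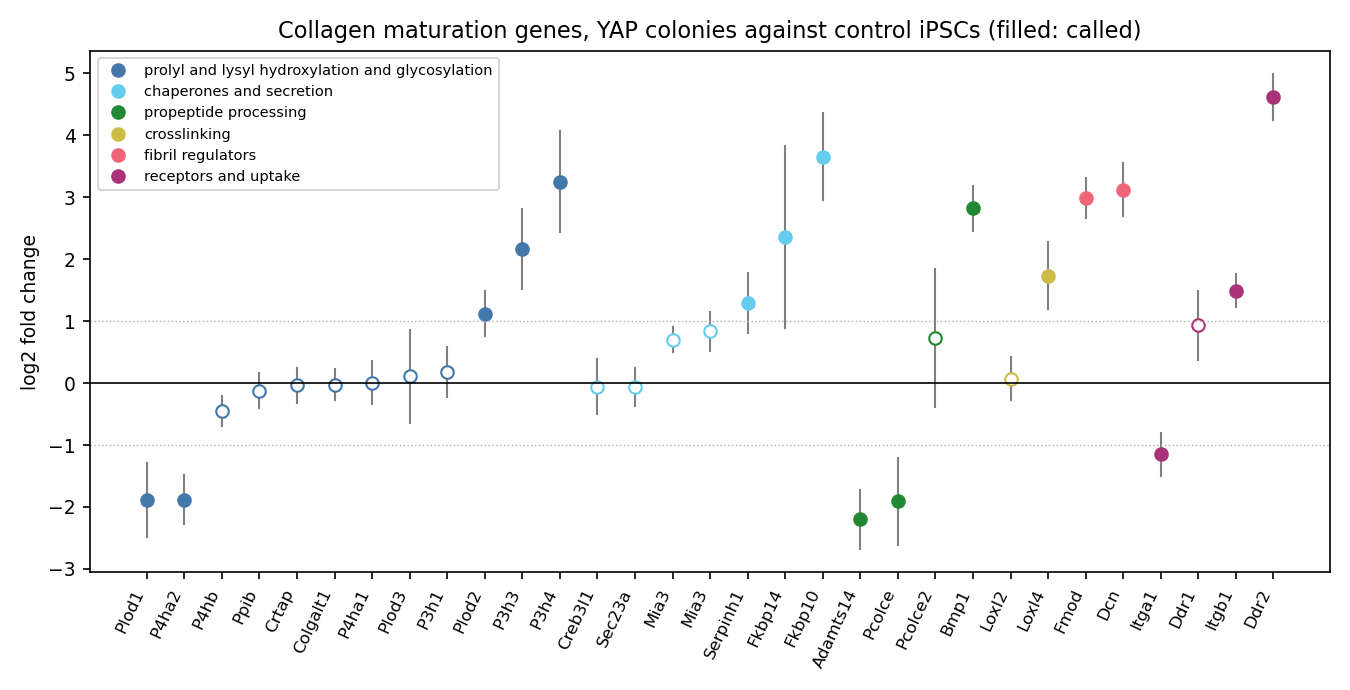
Log2 fold change on the log2(FPKM + 1) scale of the 31 tested rows of the collagen maturation list in YAP colonies against control iPSCs, by step, with 95% limma confidence intervals and filled points for called rows. Ddr2, Fkbp10, P3h4 and Dcn stand above 3, while Plod1, P4ha2, Pcolce, Adamts14 and Itga1 stand below -1.

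The basement membrane chains excluded by the rule give a scale for these levels. Type IV chains summed to 137, 172 and 174 FPKM in the colonies, against 6.07 to 8.36 in control iPSCs and 5.51 to 12.8 in YAP-culture iPSCs. In the colonies this sum was 94.5% to 142% of that of the other 38 chains together, and in the iPSCs 8.07% to 19.3%. Colony replicate 1, lowest in type IV, was the highest in Col5a2, Col15a1 and Col11a1.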

How the data were processed

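Polyadenylated RNA of 9 mouse libraries, 3 per group, was analysed from 1 table of 48640 gene rows. A strand-marking mRNA kit was used on Trizol extracts, per the labels' protocols. TopHat, Cufflinks and the mm10 build are named in the submitters' processing notes, with versions and settings not given in the sources used here. Values are FPKM as the authors deposited them, which keep no read depth, so no counting interval is given. Rows were matched to GENCODE M21 by identifier (99.1%), positions are 1-based, and a second deposited table, of group means, was not used.

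The 38 chains were taken by name, and the members and lists were chosen with earlier results of these data known. The 13808 genes whose mean over the 9 libraries reached 1 FPKM were fitted on log2(FPKM + 1) with limma 3.58.1 under R 4.3.3, as 3 group means with a trended prior and no block, with p-values adjusted over all of them. Genes reaching a mean of 1 FPKM in a group are given by library. Of the maturation list, the 4 largest calls in each direction and 9 fixed genes are named. The fit was tested on simulated data. There it recovered 40% to 42% of genes changed by 1 on the log2 scale and 84% to 90% of those changed by 1.5. False calls numbered 3 to 5. A call needs an estimated change of at least 1, so recovery at a true change of 1 is held down by that threshold. That recovery does not show how well the fit detects such a change. A gene not called near a change of 1 may therefore still have changed. The level of 1 marker gene is not reported here. The alternatives are given in the closing section. Figures were drawn with matplotlib 3.10.9.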

Additional observations from a re-analysis of the deposited data

How the results depend on the processing

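The calls for the colonies depend most on how low levels are treated. With a pseudocount of 5, the collagen chains called numbered 3 against YAP-culture iPSCs (10 in the main analysis) and 5 against control iPSCs (12), and all genes called numbered 2108 (4184) and 2259 (4396). With a mean of at least 5 FPKM fewer genes were tested: 3 and 4 chains, 2421 and 2599 genes, and 10 and 10 maturation genes were called (16 and 17). Leaving out 1 library gave 8 to 12 and 10 to 13 chains, 4059 to 4419 and 4202 to 4347 genes, and 16 to 16 and 16 to 18 maturation genes. A pseudocount of 0.1, no filter, scaling by median ratios or quantiles, fitting just the groups compared, and, chosen after seeing the data, protein-coding rows rescaled and 2 libraries left out (control and YAP-culture iPSC replicates 3) kept these counts within 1.5 times.

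Between the iPSC groups the single chain call, Col9a2, became 0 with a pseudocount of 0.1 or 5, no filter, a mean of at least 5 FPKM, a replicate block or the compared groups alone, 0 to 2 with 1 library left out, and 2 without both replicates 3. All genes called (192) became 57, 114 and 55 with a pseudocount of 5, a mean of at least 5 FPKM and the compared groups alone, 51 to 1052 with 1 library left out (1052 without YAP-culture iPSC replicate 3, 51 without control replicate 1 or 3) and 1062 without both replicates 3. Maturation genes called (0) became 1 with a pseudocount of 0.1, 0 to 1 with 1 library left out, and 1 without both replicates 3. The cause of these shifts was not tested.

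Same-numbered libraries deviated together only weakly, with correlations of -0.14 to 0.19. Deviations from means of 3 libraries cannot settle whether the numbers pair samples, and the main fit used no pairing. With a replicate block 10, 12 and 0 chains, 4184, 4398 and 160 genes and 16, 17 and 0 maturation genes were called against YAP-culture iPSCs, against control iPSCs and between the iPSC groups.

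Chains whose mean fell below the minimum level under a setting gave no value there; this was so for most chains with a mean of at least 5 FPKM, and for Col1a1, Col3a1, Col6a1, Col7a1 and Col8a1 with some colony library left out and Col7a1 without YAP-culture iPSC replicate 2. Changes that turned sign were all near 0 in the main analysis. For Col7a1 in colonies against YAP-culture iPSCs (-0.085) they were 0.237 with quantile normalization and 0.275 without colony replicate 3, in a range of -0.386 to 0.275 with 1 library left out. Against control iPSCs (0.044) they were -0.112 with a pseudocount of 0.1, -0.091 without control replicate 2 and -0.062 without colony replicate 2, in a range of -0.091 to 0.405. Between the iPSC groups they were -0.006 for Col7a1 and -0.017 for Col5a2 without control replicate 2, 0.003, 0.022 and 0.132 for Col20a1 with quantile normalization and without YAP-culture replicate 1 or 2, and -0.012 and -0.002 for Col1a1 and Col5a1 without both replicates 3. With 1 library left out, the ranges there were -0.006 to 0.430 for Col7a1, -0.017 to 0.047 for Col5a2 and -0.334 to 0.132 for Col20a1.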
